A study of Homo sapiens with 6 samples.

Results

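The difference between 2 HSP70 inhibitors, VER155008 (VER) and apoptozole (APO), was examined in C4-2B MDVR prostate cancer cells. Genes were taken when their level was above 1 FPKM (a fragment count scaled by transcript length and library size) in the VER or the APO library, which left 13889 of the 60658 identifiers listed. The measure was log2(FPKM + 0.1) with VER minus the same with APO, called the difference here. A positive difference is higher with VER and a negative one is higher with APO. No vehicle library enters the difference, and vehicle (DMSO) levels are given beside it as levels only. A difference on this scale understates the fold of genes near the pseudocount of 0.1.

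The study sequenced RNA from 2 castration-resistant prostate cancer lines, C4-2B MDVR and CWR22Rv1. Each line received DMSO, APO at 10 µM or VER at 10 µM for 48 h. C4-2B MDVR is an established line derived from C4-2B that resists the antiandrogen enzalutamide, and it was maintained with 20 µM enzalutamide, whereas CWR22Rv1 was kept without it. The sample titles name C4-2B MDVR, while the source and cell type labels of the same libraries read LNCaP-C4-2B and parental. Each of these 6 conditions is represented by 1 library. No difference therefore has a replicate check, no test was possible and no p-value is given. A gene was counted when its difference was past 2-fold in either direction, that is above 1 or below -1.

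HSP70 proteins are ATP-driven chaperones that fold client proteins and hand damaged ones to ubiquitin ligases such as STUB1. Many signalling proteins of cancer cells are clients of this machinery. APO and VER both block the ATPase activity of HSP70, and the comparison asks at which genes cells exposed to the same dose of either compound differed.

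The luminal prostate markers were present in both libraries. All 10 of them were above 1 FPKM, among them CDH1 with 378 FPKM with APO and 242 with VER, and HOXB13 with 24.4 and 65.0. All 6 basal and all 5 endothelial markers stayed at or under 0.29 FPKM in the 3 C4-2B MDVR libraries. Of the leukocyte markers only CD68 passed the filter, and of the stromal markers only COL1A1 and ACTA2, with ACTA2 at 1.06 FPKM with APO and 2.98 with VER. Depth is not given with FPKM values. The ratio of low values put the APO library at 1.43 times the depth of the VER library, so low genes were measured less precisely with VER. The mitochondrial chromosome held 14.8% of all FPKM with APO and 16.4% with VER.

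VER left 643 of the 13889 genes (4.63%) more than 2-fold above APO, and 760 (5.47%) were more than 2-fold higher with APO. Each list count past 2-fold in this line is to be read beside these shares. Whether vehicle lay above or below both inhibitors was not counted over all genes. List counts of the vehicle level therefore have no share beside them. At any size, 6553 of the 13889 genes were higher with VER and 7336 lower, and list counts by sign are to be read beside these. The median difference was -0.03, and 76.9% of the genes lay within 1.5-fold. Genes of mitosis stood lower with VER. Most of the p53 targets listed (called DNA damage response genes here) and most of the listed fatty acid synthesis genes stood higher. Androgen-induced genes past 2-fold also stood higher, while the other members lay on both sides of 0. Of genes whose higher level was 1 to 3 FPKM, 26.4% were past 2-fold, against 4.20% of those above 100 FPKM. Those 1094 high genes included 18 higher with VER and 28 higher with APO.

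**Figure D1:**
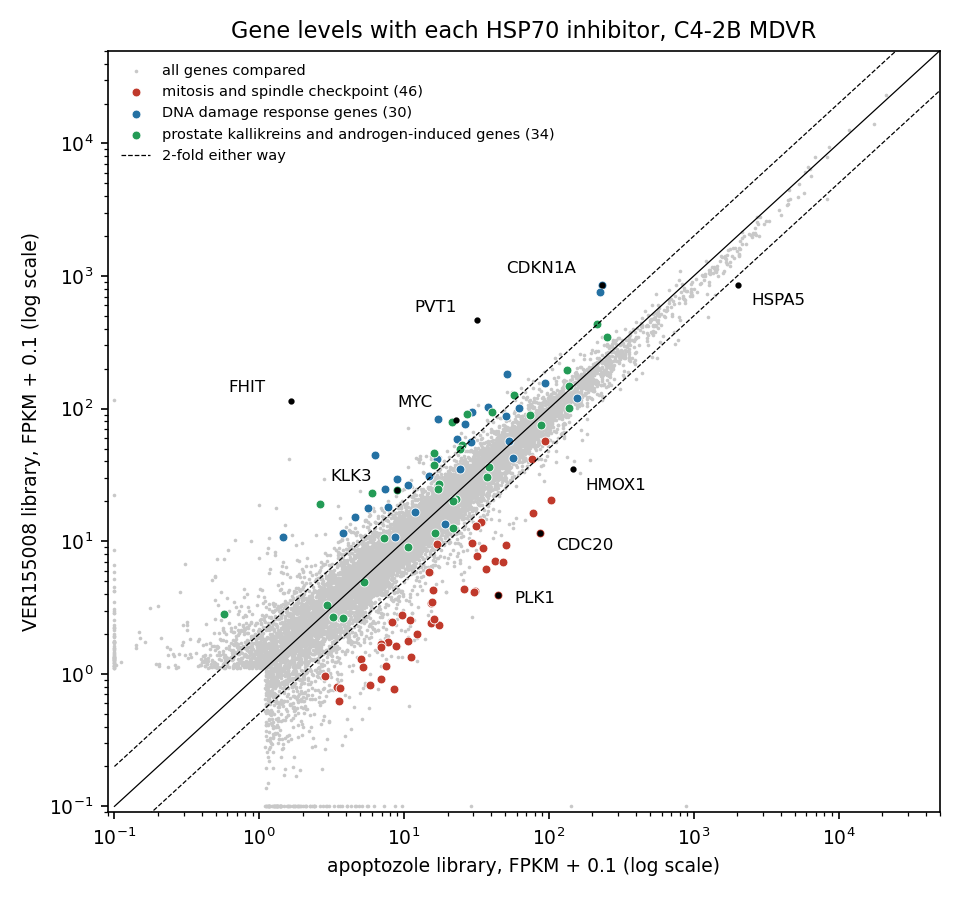
Each point is a gene, with its level in the apoptozole library on the x axis and in the VER155008 library on the y axis, both as FPKM + 0.1 on log scales. The solid line marks equal levels and the dashed lines 2-fold. The 46 mitosis genes lie below the line of equal levels, while most of the 30 DNA damage response genes lie above it and the 34 androgen-induced genes lie on both sides.

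Mitotic genes had the median furthest from 0 of the 40 lists examined. All 46 members of the list for mitosis and the spindle checkpoint were lower with VER than with APO, and 43 were more than 2-fold lower, against 5.47% of all genes. The median difference was -2.23. In every one of the 46 the vehicle level was above both inhibitor levels, and the FPKM of the list summed to 2243 with vehicle, 1178 with APO and 304 with VER. The 3 members inside 2-fold, named after their values were seen, were CDK1 (-0.88), INCENP (-0.81) and BUB3 (-0.71). Many promoters of mitotic genes are known to pair CCAAT boxes with a cell cycle homology region. RefSeq promoters (250 bases before to 50 after the first listed start, GRCh38.p14) were found for 38 members. The cell cycle homology region, TTTGAA on either strand, was in 27 of them (71.1%) against 15.4% of the 27305 promoters of the table. Both it and the CCAAT box (CCAAT) were in 23 of the 38 (60.5%) against 6.08% of all. The 150 bases before the start are shown for the 3 members with the largest difference that hold both in that stretch, in the direction of the gene and with the matches to either motif in capitals. They lie at chr16:23678739-23678888 (plus strand, PLK1), chr1:43358831-43358980 (plus strand, CDC20) and chr2:26785906-26786055 (plus strand, CENPA).
PLK1: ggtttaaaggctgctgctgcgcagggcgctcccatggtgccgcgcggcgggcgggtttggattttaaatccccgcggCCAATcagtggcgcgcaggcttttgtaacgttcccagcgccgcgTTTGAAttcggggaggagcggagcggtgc
CDC20: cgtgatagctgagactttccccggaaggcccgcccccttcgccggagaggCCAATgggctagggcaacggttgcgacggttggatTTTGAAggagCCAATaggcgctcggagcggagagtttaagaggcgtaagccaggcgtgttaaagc
CENPA: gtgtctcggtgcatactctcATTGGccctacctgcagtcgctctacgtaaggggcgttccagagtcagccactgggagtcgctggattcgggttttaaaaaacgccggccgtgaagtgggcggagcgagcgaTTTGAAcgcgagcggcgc

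PLK1, the polo-like kinase of mitotic entry and spindle assembly (chromosome 16, 23677656 to 23690367 in GENCODE 29 on GRCh38), had 92.6 FPKM with vehicle, 44.5 with APO and 3.84 with VER, a difference of -3.50. CDC20, which activates the anaphase-promoting complex, had 144, 86.0 and 11.4 FPKM in the same order (-2.91). CENPA, the histone of centromeres, had 23.4, 17.3 and 2.25 FPKM (-2.89). In these 3 genes the APO library lay between vehicle and VER and nearer to vehicle on the log scale. UBE2C, the ubiquitin-conjugating enzyme that works with the anaphase-promoting complex, had 89.0, 48.0 and 6.81 FPKM (-2.80). CCNB1, cyclin B1, had 126, 103 and 20.4 FPKM (-2.33). The kinetochore subunits NDC80 (11.1 FPKM with APO and 1.23 with VER) and SPC25 (8.40 and 0.66) differed by -3.07 and -3.48, and the phosphatase CDC25C (6.82 and 0.82) by -2.91. MKI67, which encodes the proliferation marker Ki-67, had 23.4 FPKM with vehicle, 6.86 with APO and 1.5 with VER (-2.12).

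Of the 12 protein-coding genes highest with APO relative to VER among those above 1 FPKM in both libraries, PLK1, NDC80, CDC20, CENPA, KIF2C, HMMR and UBE2C were in the mitosis list. The other 5 were CDCA3, IQGAP3, CEP55, GTSE1 and NMU. CDCA3, a cofactor for degradation at mitotic entry, had 29.1 FPKM with APO and 2.60 with VER (-3.44), and CEP55, which acts in abscission of daughter cells, had 13.8 and 1.74 (-2.92). IQGAP3, a scaffold protein, had 12.2 and 1.15 FPKM (-3.30), and its level with APO was above the vehicle level of 7.04. NMU, the neuropeptide neuromedin U, had 8.97 and 1.23 FPKM (-2.77).

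Kinesins, the motor proteins of microtubules, divided within their family. Of 31 compared, 11 were more than 2-fold lower with VER and 0 were more than 2-fold higher, with a family median of -0.14 that turned to 0.04 at most under other scalings. KIF2C had 30.9 FPKM with APO and 4.11 with VER (-2.88), KIF18B 5.27 and 0.75 (-2.66), KIF4A 10.6 and 1.68 (-2.59), KIF14 3.55 and 0.51 (-2.57) and KIF20A 8.63 and 1.52 (-2.43). These 5 are known to act on mitotic chromosomes, the spindle or cytokinesis. KIF2C, KIF4A and KIF20A, with KIF11, KIF18A and KIF23, are also in the mitosis list, so the counts of the lists overlap. KIF1C, a transport motor and the member highest with VER, differed by 0.64 and was picked after its value was seen.

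Replication genes differed in the same direction by less. Of 41 genes of DNA replication and S phase, 9 were more than 2-fold lower with VER, 0 were more than 2-fold higher, and the median was -0.61. Vehicle exceeded both inhibitors in 40 of the 41. RRM2, a subunit of ribonucleotide reductase, had 78.6 FPKM with vehicle, 14.5 with APO and 2.70 with VER (-2.39). The replication initiation factors MCM10 (3.40 FPKM with APO and 0.77 with VER), ORC6 (12.5 and 3.07) and CDC45 (10.2 and 3.50) differed by -2.01, -1.99 and -1.52. TK1, thymidine kinase, had 87.6 and 36.6 FPKM (-1.25). The cell cycle homology region was in 1 of 34 promoters of this list (2.94%), and the CCAAT box in 19 (55.9%) against 35.7% of all promoters. Of the 27 compared genes of G1 cyclins, kinases, inhibitors and the E2F-RB system, CCNA2 (6.91 FPKM with APO and 1.30 with VER, -2.33), CDKN2A (13.0 and 5.29, -1.28) and E2F5 (7.33 and 3.08, -1.23) were more than 2-fold lower with VER. CDKN1A alone was more than 2-fold higher. The list median was -0.41.

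Of 32 replication-dependent histone genes compared, 6 were more than 2-fold lower with VER and 1 was higher, against 5.47% and 4.63% of all genes. HIST2H3D had 2.55 FPKM with APO and 0.48 with VER (-2.19), HIST2H2AC 3.42 and 1.15 (-1.50) and HIST2H2AA4 2.97 and 0.91 (-1.60), whereas HIST1H3J had 0.54 and 1.62 (1.43). HIST1H4J was listed at 0 with VER and had 7.12 FPKM with APO. Reads of histone genes can be shared among near-identical copies, and their transcripts lack poly-A tails, so these levels are uncertain in a poly-A library. EZH2, the histone methyltransferase of PRC2, had 15.5 FPKM with APO and 7.78 with VER (-0.98), and 0 of 13 genes of PRC2 and DNA methylation were past 2-fold.

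Most of the listed targets of p53, called the DNA damage response genes, differed in the opposite direction. They act in arrest, repair and cell death, and DNA damage itself was not measured. GDF15 and SESN2 of this list are also among the ATF4 effectors below. Of the 30 p53 targets, 19 were more than 2-fold higher with VER, against 4.63% of all genes, and 0 were more than 2-fold lower. At any size, 27 were higher with VER and 3 lower, and the median difference was 1.33. In 23 of the 30 the vehicle level was below both inhibitor levels, and in the other 7 it lay between them. CDKN1A, which encodes the CDK inhibitor p21 (chromosome 6, 36676460 to 36687339), had 54.5 FPKM with vehicle, 232 with APO and 855 with VER (1.88). MDM2, a ubiquitin ligase gene (chromosome 12, 68808176 to 68850686), had 51.3, 51.6 and 182 FPKM (1.82). Its APO level was thus near the vehicle level, while CDKN1A was above vehicle with both inhibitors.

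GDF15, a secreted stress cytokine, had 10.0 FPKM with vehicle, 227 with APO and 753 with VER (1.73). The antiproliferative gene BTG2 had 17.1 FPKM with APO and 83.5 with VER (2.28), the quinone oxidoreductase gene TP53I3 6.15 and 44.7 (2.84), and SPATA18, a mitochondrial quality control gene, 1.37 and 10.7 (2.88). Of 31 apoptosis regulators, 2 were more than 2-fold higher with VER and 1 was lower, counts near the shares of 4.63% and 5.47% over all genes. The higher ones encode the BH3-only proteins BBC3 (4.45 FPKM with APO and 15.2 with VER, 1.75), which is also in the DNA damage list, and BMF (1.34 and 2.90, 1.06), and the lower one encodes HRK, of the same class (2.25 and 0.88, -1.26). BMF and HRK were inside 2-fold with a pseudocount of 1. BAX, a pore-forming effector, had 62.0 and 101 FPKM (0.70), and the inhibitor gene XIAP 23.9 and 25.9 (0.12).

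**Figure D2:**
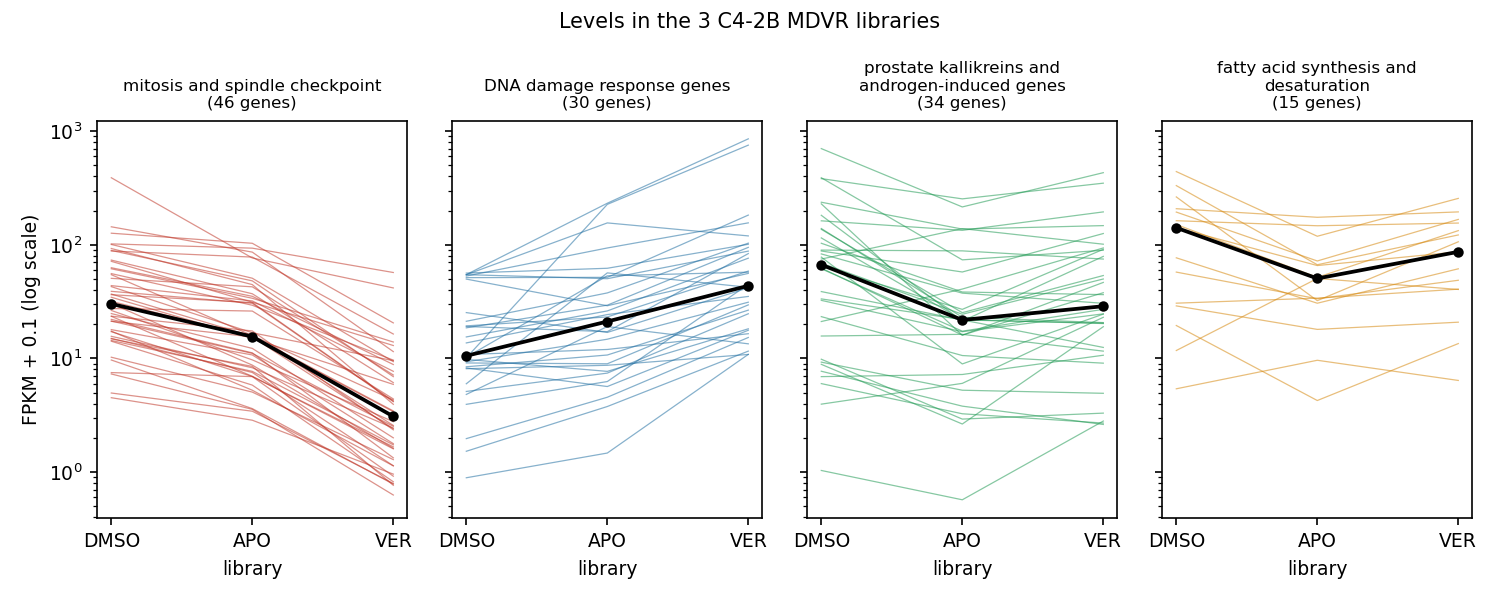
Each thin line is a gene of the named list, with its FPKM + 0.1 on a log scale in the DMSO, APO and VER libraries of C4-2B MDVR, and the black points are list medians of FPKM + 0.1. All 46 mitosis genes step down from DMSO to APO to VER. The median of the DNA damage response genes steps up, although 7 of the 30 have a vehicle level between the inhibitors, and the medians of the androgen-induced and fatty acid lists are lowest with APO.

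Androgen-induced genes past 2-fold were all higher with VER, while the other members lay on both sides of 0. Of 34 compared, 13 were more than 2-fold higher with VER and 0 were more than 2-fold lower, with a median of 0.49. At any size, 21 were higher with VER and 13 lower, down to -0.80. Vehicle exceeded both inhibitors in 24 of the 34. KLK3, which encodes prostate-specific antigen (chromosome 19, 50854915 to 50860764), had 77.8 FPKM with vehicle, 8.84 with APO and 24.4 with VER (1.46). KLK2, the neighbouring kallikrein (chromosome 19, 50861568 to 50880567), had 229, 15.9 and 46.5 FPKM (1.54). Both genes were below vehicle with either compound and lowest with APO. KLK4 had 64.5, 26.9 and 91.1 FPKM (1.76), so its level with VER was above vehicle, and KLK15 had 0.93, 0.47 and 2.71 (2.30).

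TMPRSS2, the membrane protease gene, had 62.2 FPKM with vehicle, 15.9 with APO and 37.7 with VER (1.24). SLC45A3, which encodes prostein, had 182, 21.2 and 78.9 FPKM (1.89), ACPP, prostatic acid phosphatase, had 8.76, 2.55 and 18.9 (2.84), and PLA2G2A, a secreted phospholipase, 3.86, 5.93 and 22.9 (1.93). In contrast, FKBP5, a co-chaperone of steroid receptors, had 139, 22.9 and 20.6 FPKM (-0.15). It was far below vehicle in both libraries and differed little between the inhibitors.

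The lineage factors HOXB13 (1.41), SPDEF (25.2 FPKM with APO and 53.5 with VER, 1.09) and FOXA1 (104 and 199.6, 0.93) were higher with VER, and all 3 were below vehicle with both. Of the 18 compared genes of steroid receptors and lineage factors, 3 were more than 2-fold higher with VER, and AKR1C3, an androgen-forming reductase whose reads can be shared with AKR1C1 and AKR1C2, was lower (2.71 and 0.38, -2.55). NR3C1, the glucocorticoid receptor gene, was under the filter with 0.13 FPKM with APO and 0.10 with VER.

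Genes known to be repressed by androgen were, like the induced ones, higher with VER where past 2-fold. Of 14 compared, 5 were more than 2-fold higher with VER and 0 lower, with a median of 0.64. They were UGT2B11 (5.58 FPKM with APO and 16.5 with VER, 1.55), of a family of near-identical glucuronidation enzymes, CAMK2N1 (16.4 and 43.2, 1.39), DDC (11.1 and 25.8, 1.21), CITED2 (23.8 and 53.8, 1.17) and PEG3 (0.41 and 1.01, 1.12), the last inside 2-fold with a pseudocount of 1.

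MYC, the growth-promoting transcription factor (chromosome 8, 127735434 to 127741434), had 120.5 FPKM with vehicle, 22.6 with APO and 82.3 with VER (1.86). PVT1, the long noncoding RNA gene downstream of it (chromosome 8, 127794533 to 128101253), had 142, 32.0 and 464 FPKM (3.86), and so was above vehicle with VER and below it with APO. MXD3, a repressor of the MYC network, had 11.2 FPKM with APO and 2.80 with VER (-1.97). Of 43 MYC targets and ribosome biogenesis genes, 0 were past 2-fold in either direction, with a median of 0.16. The members furthest from 0 were WDR12 (16.1 and 8.49 FPKM, -0.92) and POLR1A (5.20 and 8.07, 0.63). Vehicle exceeded both inhibitors in 40 of the 43.

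Lipid genes divided by pathway. Of 15 genes of fatty acid synthesis and desaturation, 6 were more than 2-fold higher with VER and 0 lower, with a median of 0.54. FASN, fatty acid synthase (chromosome 17, 82078333 to 82098332), had 264 FPKM with vehicle, 32.1 with APO and 106 with VER (1.72). ELOVL6, a fatty acid elongase, had 19.4, 4.16 and 13.4 FPKM (1.66). The desaturase gene SCD had 151, 51.6 and 133 (1.37), and FADS2 441, 119 and 256 (1.11). SREBF1, which encodes the transcription factor of this pathway, had 194, 71.9 and 167 FPKM (1.22). In these 5 genes both inhibitor levels were under vehicle. Of 23 genes of cholesterol synthesis and uptake, 0 were past 2-fold, with a median of 0.08. The largest differences there were LSS, lanosterol synthase (11.2 FPKM with APO and 19.2 with VER, 0.77) and SREBF2 (58.7 and 95.2, 0.70).

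**Figure D3:**
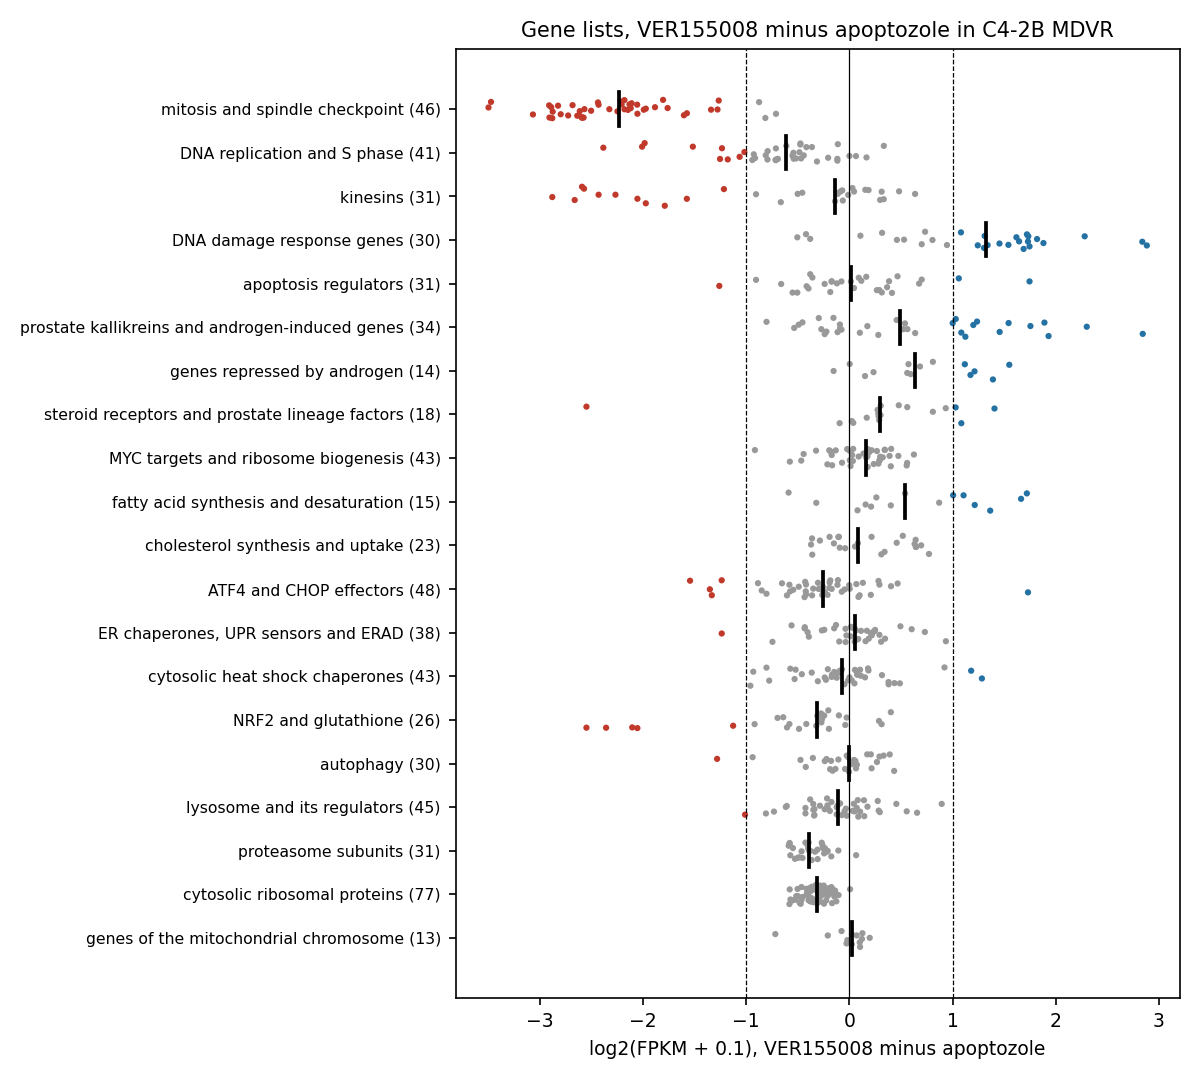
Each point is a gene and each row a list with the number of genes compared in brackets, and the x axis is the difference of log2(FPKM + 0.1), VER minus APO. Black bars are list medians, dashed lines mark 2-fold, and points past 2-fold are blue when higher with VER and red when higher with APO. The mitosis row lies left of 0 throughout, the DNA damage row lies mainly right of 1, and the rows for MYC targets, cholesterol, proteasome and ribosome hold no point past 2-fold.

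The integrated stress response is carried by the factor ATF4, which induces amino acid transport and synthesis genes. All 48 of its compared effectors were above vehicle in both inhibitor libraries. The list summed to 2746 FPKM with vehicle, 11104 with APO and 9175 with VER. Between the inhibitors 37 of the 48 were lower with VER, with a median of -0.26. Over the alternative settings this median lay between -0.26 and -0.08. More than 2-fold lower were 4, against 5.47% of all genes, and 1, GDF15, was more than 2-fold higher. ATF4 itself had 246 FPKM with vehicle, 854 with APO and 812 with VER (-0.07). The 4 lower ones were ATF3, a stress-induced repressor (7.19, 169.8 and 58.1 FPKM in the same order, -1.54), SLC3A2, the heavy chain of amino acid transporters (126, 1251 and 489.7, -1.35), PPP1R15A, which directs dephosphorylation of eIF2 alpha (2.20, 11.5 and 4.52, -1.33), and DDIT3, which encodes CHOP (18.5, 437 and 185, -1.24). Each of the 4 was nearer to vehicle with VER than with APO.

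Promoters were found for 40 of these 48 genes. The C/EBP-ATF element, TGATGNAA on either strand, was in 12 of the 40 (30.0%) against 3.67% of all promoters. The 150 bases before the start are shown for the 2 members with the largest difference that hold a match in that stretch, with the match in capitals. They lie at chr19:48755374-48755523 (plus strand, FGF21, a difference of -0.49) and chr7:97872409-97872558 (minus strand, ASNS, asparagine synthetase, -0.21) and so belong to genes inside 2-fold.
FGF21: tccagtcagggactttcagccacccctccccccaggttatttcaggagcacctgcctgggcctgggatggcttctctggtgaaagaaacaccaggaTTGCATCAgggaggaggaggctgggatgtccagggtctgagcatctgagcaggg
ASNS: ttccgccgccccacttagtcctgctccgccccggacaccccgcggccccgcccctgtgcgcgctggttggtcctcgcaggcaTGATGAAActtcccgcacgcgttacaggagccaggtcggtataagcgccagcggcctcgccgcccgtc

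Endoplasmic reticulum chaperones showed 1 large exception. Of 38 genes for chaperones, sensors of unfolded proteins and degradation from the endoplasmic reticulum, HSPA5 was the only member past 2-fold and the median was 0.05. DERL3 also came past 2-fold, higher with VER, when the libraries were scaled to the same sum. HSPA5, the HSP70 family member of the endoplasmic reticulum (chromosome 9, 125234853 to 125241330), had 278 FPKM with vehicle, 2035 with APO and 863 with VER (-1.24). In 37 of the 38 genes vehicle was below both inhibitors. XBP1, a transcription factor of the unfolded protein response, had 484 FPKM with APO and 358 with VER (-0.43), and the sensor genes ATF6 33.2 and 25.2 (-0.39) and EIF2AK3 16.0 and 24.3 (0.60). The ER stress element (CCAAT, 9 bases, CCACG) was in 7 of 35 promoters of this list (20.0%) and in 0.081% of all.

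In the cytosol, 2 of 43 heat shock chaperones were past 2-fold, both higher with VER, which is near the 4.63% of all genes. They were HSPA1B, an inducible HSP70 gene (62.1 FPKM with vehicle, 13.5 with APO and 33.0 with VER, 1.28), and HSPA4L, a nucleotide exchange factor of HSP70 (11.4, 6.51 and 14.9, 1.18). HSPA1A, the near-identical copy of HSPA1B, stayed under 0.16 FPKM in these libraries, and the copies summed to 62.2, 13.6 and 33.1 FPKM. HSPA8, the constitutive HSP70, had 1332 FPKM with vehicle, 1399 with APO and 719 with VER (-0.96), inside the limit. The list median of -0.07 changed sign under other scalings, and HSPA1L came past 2-fold, higher with VER, at the same sum. HSP90AA1 had 539 FPKM with APO and 489 with VER (-0.14), and STUB1 132 and 115 (-0.21).

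The oxidative stress list had 5 of 26 genes more than 2-fold lower with VER and 0 higher, with a median of -0.32. HMOX1, heme oxygenase 1 (chromosome 22, 35380361 to 35394214), had 14.1 FPKM with vehicle, 145 with APO and 34.9 with VER (-2.06). FTH1, the ferritin heavy chain, had 1504, 8279 and 3790 FPKM (-1.13), and was inside 2-fold when the libraries were scaled to the same sum. The aldo-keto reductase genes AKR1C2 (0.47, 15.2 and 2.89 FPKM, -2.36) and AKR1C1 (0.48, 7.52 and 1.67, -2.11) completed the group with AKR1C3, and reads can be shared among the 3. All 5 were higher with APO than with vehicle. Of 30 autophagy genes only SQSTM1, the cargo receptor p62, was past 2-fold (207 FPKM with vehicle, 744 with APO and 306 with VER, -1.28), and MAP1LC3B, which encodes the membrane protein LC3B, had 18.6, 115 and 60.0 (-0.94). Of 45 lysosomal genes only LAMP3 was past 2-fold (13.5 FPKM with APO and 6.65 with VER, -1.01). At the same sum LAMP3 was inside 2-fold and TFEB, a regulator of lysosomal genes, was past it and higher with VER. In 27 of the 30 autophagy and 38 of the 45 lysosomal genes vehicle was below both inhibitors. Of 6 genes of metallothioneins and zinc transport and 32 of hypoxia and glycolysis, 0 were past 2-fold, although CA12 of the hypoxia list came past it, higher with VER, at the same sum. The metallothionein MT2A had 100.2 FPKM with vehicle, 511 with APO and 467 with VER (-0.13).

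Among secreted and immune genes, LCN2, lipocalin 2, had 1.48 FPKM with vehicle, 68.5 with APO and 14.4 with VER (-2.24), while the cytokine gene LIF had 1.70, 2.03 and 7.40 (1.82). CALCA, which encodes calcitonin and its related peptide, had 0.12, 28.5 and 9.57 FPKM (-1.56). It was the only one of 4 compared neuroendocrine markers past 2-fold. Of 24 interferon-stimulated genes 5 were more than 2-fold lower with VER and 0 higher, and these were the low genes OASL (1.61 FPKM with APO and 0.46 with VER, -1.61), OAS3 (2.49 and 0.92, -1.34), IFIT1 (3.48 and 1.47, -1.19) and IRF1 (9.39 and 4.09, -1.18), with ISG20 (21.6 and 8.47, -1.34) the most abundant. OASL, OAS3 and IFIT1 were inside 2-fold with a pseudocount of 1. Of 14 genes of HLA class I presentation, its activator NLRC5 was the only one past 2-fold (2.00 and 0.91, -1.06), and it was inside 2-fold at the same sum and with a pseudocount of 1. Of 19 early response factors, ATF3 and the phosphatase gene DUSP5 (8.86 and 3.57, -1.29) were lower and IER5 (4.50 and 12.6, 1.46) was higher.

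Housekeeping complexes differed by small amounts that ran one way. Of all 13889 genes compared, 7336 were lower with VER. Of 31 proteasome subunits 30 were lower with VER, with a median of -0.39 and 0 past 2-fold. Of 77 cytosolic ribosomal protein genes 76 were lower with VER, with a median of -0.32 and 0 past 2-fold, and of 45 splicing factors 41 were lower (-0.23). The medians of nuclear-encoded respiratory chain subunits (82 genes, -0.25) and mitochondrial ribosomal proteins (78 genes, -0.22) were similar, with MRPS6 the only member past 2-fold (91.7 FPKM with APO and 37.6 with VER, -1.28). Scaling the libraries to the same sum moved the median of all genes from -0.03 to 0.12, and these list medians then stood nearer 0 without changing sign. The 13 genes of the mitochondrial chromosome had a median of 0.02, and MT-ND6 stood apart with 128 FPKM with APO and 77.6 with VER (-0.72).

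The largest differences in favour of VER among genes above 1 FPKM in both libraries were those of FHIT and FAXDC2, which belong to no list. FHIT, a tumour suppressor gene at a fragile site (chromosome 3, 59749310 to 61251459), had 0.72 FPKM with vehicle, 1.55 with APO and 114 with VER (6.11). FAXDC2, a fatty acid hydroxylase domain gene, had 3.10, 1.5 and 41.7 FPKM (4.71). GJB1, the gap junction protein connexin 32, had 8.57, 1.05 and 8.75 (2.94). CIDEB, a lipid droplet protein gene, had 2.18, 1.06 and 10.5 FPKM (3.19), and ALDH1A2, a retinoic acid synthase gene, 0.58, 1.03 and 8.08 (2.85). FAM198B (2.74), BLNK, a B cell adaptor (2.69), and CBLN2, a synaptic organiser (2.61), were also among the 12 highest, as were ACPP, TP53I3 and SPATA18. For FAXDC2, CIDEB, GJB1, FAM198B, CBLN2 and ACPP the APO level was under vehicle and the VER level above it.

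Among genes above 100 FPKM, the ubiquitin ligase gene NEDD4L had 58.7 FPKM with vehicle, 164 with APO and 32.8 with VER (-2.32). The cancer-testis gene GAGE2A had 110.1, 193 and 40.6 FPKM (-2.25), with reads that can be shared among near-identical copies. A few of the most extreme rows were short or duplicated genes listed at 0 on one side. AL162151.2, a processed pseudogene of 158 exonic bases, had 887 FPKM with APO and was listed at 0 with VER and with DMSO. In CWR22Rv1 it likewise had 567 FPKM with APO and was listed at 0 with VER and with DMSO. RNU1-85P, a small nuclear RNA gene of 164 bases, had 143 FPKM with APO and was listed at 0 in the other C4-2B MDVR libraries and in all CWR22Rv1 libraries. USP41, which is nearly identical to USP18, was listed at 0 with APO and had 115.98 FPKM with VER, while USP18 had 6.49 and 9.38. FPKM scales counts by length, and the levels of these 3 rows are uncertain. In all, 57 genes higher with VER were listed at 0 with APO and 74 of the opposite direction were listed at 0 with VER.

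The genes past 2-fold were shorter and lower than the rest. Their median exonic length was 3297 bases for those higher with VER and 3010 for those higher with APO, against 4595 for all compared genes. Protein-coding genes made up 61.9% and 66.6% of them, against 85.1% of all. The median of the higher level was 3.22 and 3.80 FPKM, against 13.3. Median GC content of the longest transcript was 52.4% for genes higher with VER, 48.3% for those higher with APO and 48.7% for all. The part of the filter, level, length, GC and depth in the differences was not tested.

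The vehicle level placed the genes past 2-fold in different ways, and this split was not counted over all genes compared. Of the 643 genes higher with VER, 324 had a vehicle level between the inhibitors, 140 one above both and 179 one below both. Of the 760 higher with APO, 278 had it between, 254 above both and 228 below both.

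The same difference was computed in CWR22Rv1 cells, whose APO and VER libraries are separate from those above. There 1661 of 14800 genes (11.2%) were more than 2-fold higher with VER and 1067 (7.21%) higher with APO. List counts past 2-fold in CWR22Rv1 are to be read beside these shares. Genes above and below 0 were not counted over all genes of that line. Its list medians are given at the original scaling only. Genes of the mitochondrial chromosome held 10.4% of FPKM with APO and 25.7% with VER in that pair, and their part in the other differences was not tested. Across the 12557 genes compared in both lines the differences had a Pearson r of 0.29 and a Spearman rho of 0.35. This describes genes, which are not independent replicates. Of the 415 genes more than 2-fold higher with VER in C4-2B MDVR and compared in both, 178 (42.9%) were also more than 2-fold higher in CWR22Rv1, where 7.80% of all shared genes were, and 20 were more than 2-fold lower. These 178 were 18.2% of the 980 such genes of CWR22Rv1. Of 538 higher with APO in C4-2B MDVR, 145 (27.0%) were also higher with APO in CWR22Rv1, where 6.12% of shared genes were, and 51 were opposite. These 145 were 18.9% of the 769 such genes of CWR22Rv1.

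**Figure D4:**
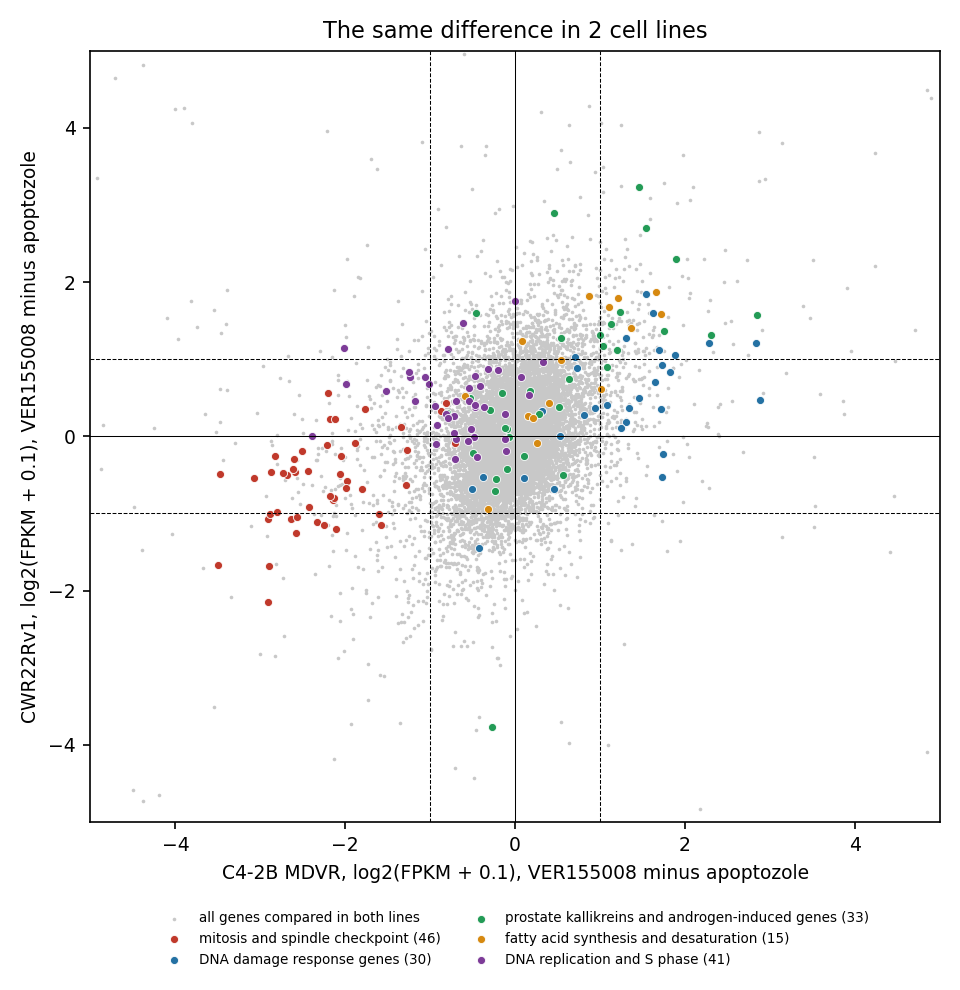
Each point is a gene compared in both lines, with the difference of log2(FPKM + 0.1), VER minus APO, in C4-2B MDVR on the x axis and in CWR22Rv1 on the y axis, and 17 genes lie outside the axes. Dashed lines mark 2-fold. Mitosis genes spread further along the x axis than along the y axis, fatty acid and androgen-induced genes extend to the upper right, and most replication genes lie in the upper left.

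Androgen-induced and fatty acid genes past 2-fold stood mainly higher with VER in both lines. Of those compared in both, 24 of 33 and 13 of 15 had the same sign, against 7908 of 12557 over all genes. In CWR22Rv1 the androgen-induced list had 17 of 38 genes more than 2-fold higher with VER and 1 lower, with a median of 0.76. KLK3 had 2.33 FPKM with APO and 22.7 with VER there (3.23), and KLK2 7.91 and 52.0 (2.70). The fatty acid list had 7 of 16 genes higher and a median of 0.80, with FASN at 1.58 and SCD at 1.40. Of the 12 genes highest with VER in C4-2B MDVR, GJB1 differed by 3.34 and CBLN2 by 2.01. FAXDC2, ACPP, TP53I3 and FAM198B were also more than 2-fold higher. BLNK (-0.20), SPATA18 (0.47) and CIDEB (0.82) were inside 2-fold, and ALDH1A2 was under the filter (0.47 FPKM with APO and 0.02 with VER). FHIT had 568 FPKM with vehicle, 53.9 with APO and 127 with VER (1.24), so vehicle was above both there.

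Mitotic and DNA damage response genes differed by less in CWR22Rv1. Of the 46 mitosis genes 13 were more than 2-fold lower with VER and the median was -0.52, with PLK1 at -1.66 and CDC20 at -2.15. The same sign in both lines was held by 39 of the 46, against 7908 of 12557 over all genes. Of the 30 DNA damage response genes 8 were more than 2-fold higher and 1 was lower, with a median of 0.39. CDKN1A differed by 1.06, MDM2 by 0.84 and GDF15 by -0.53.

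The stress lists ran in different directions in CWR22Rv1. Of 47 ATF4 effectors 15 were more than 2-fold lower with VER, with a median of -0.74, and DDIT3 differed by -2.59 and ATF3 by -3.11. Of the 38 endoplasmic reticulum genes 7 were more than 2-fold higher with VER and 1 was lower, with a median of 0.32. Of 45 heat shock chaperones 5 were higher and 2 lower, against 11.2% and 7.21% of all genes there, with a median of -0.05. HMOX1 (-2.03) and SQSTM1 (-1.35) had values close to those of C4-2B MDVR. HSPA8 was higher with VER in CWR22Rv1 (545 FPKM with APO and 1210 with VER, 1.15), against -0.96 in C4-2B MDVR. Cholesterol genes had 12 of 24 more than 2-fold higher with VER (median 0.99), and 12 of the 13 mitochondrial chromosome genes were more than 2-fold higher (median 1.40), against 0 in both lists in C4-2B MDVR. The replication list had the opposite median, 0.45, with 32 of 41 genes above 0. More than 2-fold higher with VER were 4 of the 41 and 0 were lower, against 11.2% and 7.21% of all genes. No difference between the lines was tested, because each value rests on 1 library.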

How the data were processed

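RNA sequencing covered both cell lines with vehicle, APO or VER, at 1 library per condition. The paper describes library preparation with a TruSeq kit, whereas the labels describe a stranded poly-A kit of another maker. The authors aligned paired-end reads and deposited FPKM values per gene, normalised between libraries by Cuffnorm; the submitters' notes name HISAT, Cufflinks and GRCh38. FPKM carries no read totals, so no count test, interval or detection limit was possible.

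Symbols, coordinates and lengths came from GENCODE 29 (57047 of 60658 identifiers, 13821 of the 13889 compared). No difference between libraries was tested. The 40 gene lists and the members were chosen with earlier results of these data known. Named were the 12 protein-coding genes highest on each side above 1 FPKM in both libraries, the 5 on each side above 100 FPKM, up to 5 members of each list and 2 past 2-fold against its median, 27 fixed genes, and up to 5 genes listed at 0 on each side. The 13 alternatives covered pseudocount, filter, scaling, threshold and biotype. Promoters came from RefSeq (GRCh38.p14). They matched 10281 compared genes, so motif shares over all compared genes, and over lists with promoters for under 80% of members, are not given. Python 3.11.15, pandas 2.3.3 and numpy 2.4.6 were used. A few of the genes named by this rule are left out here.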

Additional observations from a re-analysis of the deposited data

Results flagged for a closer look

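In these results the direction of the difference between VER and APO was opposite in C4-2B MDVR and CWR22Rv1. The difference between the lines was not tested, since each line has 1 library per inhibitor.

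The replication initiation factor MCM10 differed by -2.01 in C4-2B MDVR (3.40 FPKM with APO and 0.77 with VER) and by 1.15 in CWR22Rv1 (2.99 and 6.73). The median of the list of DNA replication and S phase genes was -0.61 in C4-2B MDVR and 0.45 in CWR22Rv1. In CWR22Rv1 4 of the 41 genes were more than 2-fold higher with VER, against 11.2% of all genes there. Scaling to the same sum moved the median of all genes in CWR22Rv1 from -0.03 to -0.21. The list median there is given at the original scaling only. USP41 was listed at 0 with APO and had 115.98 FPKM with VER in C4-2B MDVR, whereas it had 25.8 FPKM with APO and was listed at 0 with VER in CWR22Rv1. With vehicle it had 0.17 FPKM in C4-2B MDVR and 0.07 in CWR22Rv1. USP41 is nearly identical to USP18, so these levels and their opposite directions are uncertain.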

How the results depend on the processing

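No paired analysis was possible because each condition has 1 library, and leaving out a replicate was not possible for the same reason. The counts of genes past 2-fold moved with the filter, the pseudocount and the threshold. In the order higher with VER and higher with APO in C4-2B MDVR, then higher with VER and higher with APO in CWR22Rv1, they were 335, 467, 1024 and 672 with a pseudocount of 1. They were 1746, 2104, 3375 and 2279 with FPKM above 0.1 in at least 1 library, and equally without a filter. They were 320, 385, 917 and 671 with FPKM above 1 in both libraries. They were 166, 196, 537 and 405 with FPKM above 10 in at least 1 library. They were 3530, 4054, 5048 and 5289 at 1.2-fold. They were 1518, 1688, 3134 and 2753 at 1.5-fold. They were 161, 244, 420 and 235 at 4-fold. Among protein-coding genes only they were 398, 506 and 1016 for the first 3, and 760 for the last. Scaling moved the split. The share of genes past 2-fold that were higher with VER in C4-2B MDVR was 45.8%, and 56.7% (852 against 651 genes) with libraries scaled to the same sum and 58.6% (899 against 634) with the same sum without mitochondrial genes, where the median difference was 0.15. In CWR22Rv1 it was 60.9% and became 44.6% (1288 against 1597) at the same sum. The mitosis median was -1.93 with a pseudocount of 1 and lay between -2.38 and -1.93 over all alternatives, the DNA damage response median between 1.28 and 1.5, the androgen-induced median between 0.46 and 0.67 and the fatty acid median between 0.53 and 0.72. The stromal median, 0.68 over 2 genes, was -0.059 with FPKM above 10 because 1 gene remained. Spearman's rho between the lines was 0.24 without a filter. Of the 113 named genes past 2-fold 0 changed direction under any alternative, FTH1, LAMP3 and NLRC5 came inside 2-fold at the same sum, with or without mitochondrial genes, and FOXA1, DERL3, HSPA1L, CA12 and TFEB, named but inside 2-fold before, came past it there. With a pseudocount of 1, 10 came inside (HRK, BMF, PEG3, LAMP3, OASL, OAS3, IFIT1, NLRC5, ACTA2 and HIST1H3J). With a median ratio of 1 LAMP3 came inside and CA12 past, and with a pseudocount of 0.01 HSPA1L came past. With 1 library per condition, variation between cultures and the effect of each inhibitor cannot be told apart. FPKM without read totals leaves the error of low genes unknown, and 323 of the 643 genes higher with VER and 375 of the 760 higher with APO were under 1 FPKM in the other library.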
